A study of Mus musculus with 32 samples.

Results

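Heart RNA was compared between mice that had rested for 42 days after 10 days of social stress and mice that had rested for 1 day, each set against its own unstressed controls. The comparison used 16 of the 32 arrays of the series, chosen by the sample titles, with 1 heart per array. The groups were 4 T10R42 stressed and 4 T10R42 control mice, and 4 T10R1 stressed and 4 T10R1 control mice, where T gives the days of exposure and R the days of rest. All were C57BL/6, an inbred mouse strain, and the ages and sexes were not given in the sources used here. Stressed mice spent 6 hours a day in a mesh box within an aggressor's cage and were placed with the aggressor for short bouts of attack, whereas controls spent the time in mesh boxes with no aggressor. The 2 conditions share no mouse and no control array, and no heart was measured at both times. The quantity reported is the difference of stress effects, which is stressed minus control in T10R42 minus the same in T10R1, on the log2 scale. Genes with a limma p-value below 0.05 after Benjamini-Hochberg adjustment over all 27517 tested genes are referred to as called. A change that the early comparison called was counted as shrunk if it was not called in T10R42, was smaller there and its difference was called. It was counted as stayed or reversed if T10R42 also called it, in the same or in the opposite direction, and as unsettled otherwise.

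The heart consists of contractile muscle cells together with fibroblasts, endothelial cells and resident macrophages. Fibroblasts lay down the collagen matrix that carries force between muscle cells, and under load or injury they switch on collagens, crosslinking enzymes and secreted matrix proteins. Muscle cells under load switch on genes of the fetal heart, such as the slow beta myosin heavy chain Myh7. Aggressive encounters also act on the heart through adrenaline and glucocorticoids.

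The arrays carry 60-base probes, and the identity of a value is that of its probe. The first 30 bases of the probes behind 6 of the genes described first are shown, 5′ to 3′. Each gene is read by its brightest such probe, and Myh7 and Myh6 are close relatives whose probes must differ to tell them apart. The coordinates refer to mm9, the build of the array's design.
Cilp, chr9:65128007-65128066, plus strand: tttctgtccatctcatgtgacagctgtcgt
Col3a1, chr1:45405589-45405648, plus strand: ataagccaaactctctgaaaccccagcaaa
Myh7, chr14:55589581-55589640, minus strand: atgaggagtagctcttgtgctacccagctc
Myh6, chr14:55560774-55560833, minus strand: gcacgacgaggaataacctctccagcagac
Clpx, chr9:65177803-65177862, plus strand: ctcggatatcatacatggtcaaaagccttt
Tmed5, chr5:108550958-108551017, minus strand: ggactgtgtgctcttttatatgaatgtcaa
The longest run of bases that the whole Myh7 and Myh6 probes share is 6 bases.

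The RNA matched its label as heart. The muscle genes Myh6, Tnnt2 and Actc1 lay between 9.57 and 10.8 on the scale used throughout, the log2 signal minus the array's 75th percentile, and were above background on all 16 arrays. Between 31605 and 38527 probes per array were well above background, and within groups the correlation between 2 arrays ranged from 0.985 to 0.994. The number of arrays limits the precision. Slide and condition were the same factor, the slides were scanned on different days, and on each slide the stressed mice occupied columns 3 and 4 and the controls columns 1 and 2, so an effect of array column and an effect of stress cannot be told apart. Several hearts stood apart. The mean of 4 lung markers, relative to the controls of its own condition, was -1.68, -0.57, -0.75 and 2.75 in T10R42 stressed hearts, against 3.69, -0.90, -1.42 and -1.36 in T10R42 controls. The mean of 25 immediate early genes, which respond within minutes to stimulation, was -1.08, -1.04, -1.0 and -0.90 in T10R1 stressed hearts, against -0.48, -0.73, 2.01 and -0.80 in T10R1 controls. Counts without these 3 hearts (T10R42 stressed replicate 4, T10R42 control replicate 1 and T10R1 control replicate 3) are therefore given for the lists whose counts they change most. Whole hearts were used, so fewer cells of a type and less RNA per cell cannot be told apart.

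Among the early changes, most of those that could be settled had shrunk and none had stayed. T10R42 called 84 genes higher (0.305% of those tested) and 148 lower (0.538%), and T10R1 called 188 higher (0.683%) and 99 lower (0.36%). The difference was called above 0 for 631 genes (2.29%) and below 0 for 547 (1.99%). Under quantile normalization T10R42 called 195 genes higher and 180 lower, and T10R1 called 145 higher and 40 lower. Of the 287 genes called in T10R1, 168 had shrunk, 117 were unsettled, 2 had reversed and 0 had stayed. The 2 genes called in both conditions are 0.862% of the T10R42 calls and 0.697% of the T10R1 calls. The sizes of these classes describe the data, because the T10R1 arrays both chose the genes and enter the difference. The levels of the T10R42 hearts do not enter the T10R1 change, although they share its estimate of the spread, and T10R1 called between 243 and 294 genes with 1 T10R42 array left out. In T10R42 the 188 genes that had risen early had a median change of -0.00468, with 93 still measured higher and 95 measured lower. The 99 genes that had fallen early had a median of 0.114 in T10R42, with 19 still measured lower and 80 measured higher. The shrunk class requires a called difference, which favours T10R42 changes of the other sign, so its T10R42 values are given as a description. The 100 shrunken rises had a median of -0.156 in T10R42, against 0.923 in T10R1, and 83 of them were measured lower in T10R42. The 68 shrunken falls had a median of 0.157 in T10R42, against -0.463 in T10R1, and all 68 were measured higher in T10R42.

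The late calls depended on single hearts. Without the 3 hearts that stood apart, 14 genes were called in T10R42, 158 in T10R1 and 446 for the difference, and 74 changes counted as shrunk, with 0 stayed and 1 reversed. With array weights from limma, 10 changes stayed and 112 reversed, against 742 that shrank. Leaving out 1 array at a time gave between 29 and 1363 T10R42 calls, the lowest without T10R42 control replicate 3 or T10R42 stressed replicate 3 and the highest without T10R42 stressed replicate 2. The last gene called for the difference, Pak4, had an adjusted p of 0.0499, and the next, Kmt5c, stood at 0.05.

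**Figure D1:**
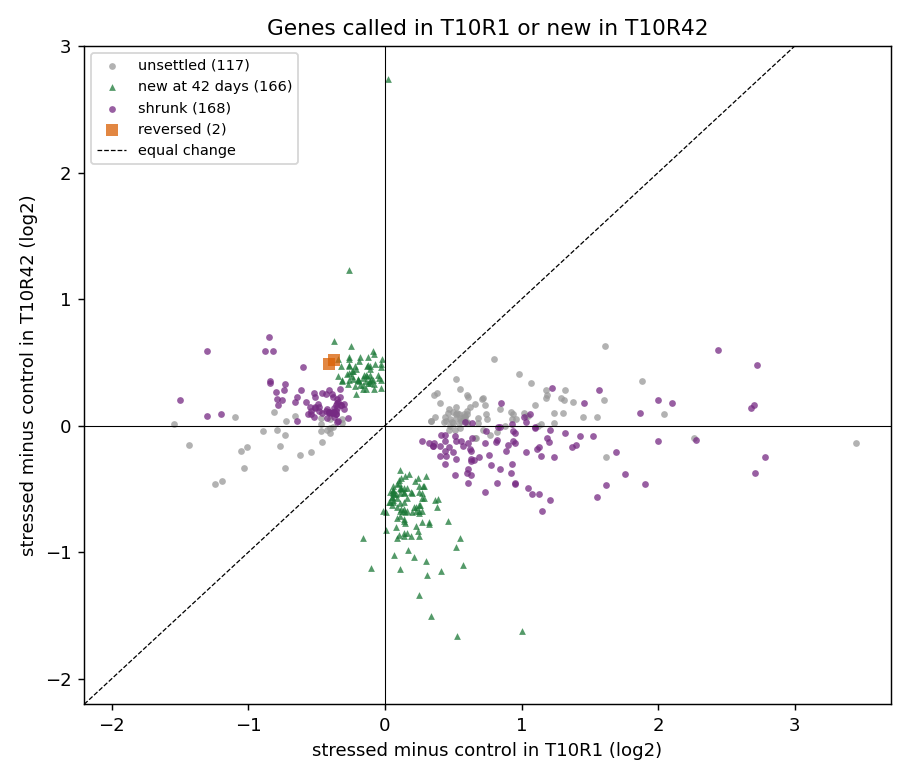
Stressed minus control in T10R42 (vertical, log2) against T10R1 (horizontal, log2) for the 287 genes called in T10R1 (168 shrunk, 117 unsettled, 2 reversed) and the 166 genes called in T10R42 with a called difference that T10R1 did not call; each point is a gene. Shrunken changes lie away from the dashed line of equal change. Of these, 83 of 100 rises lie below the horizontal line at 0 and all 68 falls lie above it.

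Matrix genes were among the largest early rises, and in T10R42 the median changes of the collagen and matrix glycoprotein lists were near 0. Of 17 collagens tested, T10R42 called 0 and T10R1 called 11 higher, and the difference was called below 0 for 7. The median change of the collagens was -0.0109 in T10R42, against 1.15 in T10R1, where all genes had medians of -0.018 and -0.00743. Of 31 matrix glycoproteins and proteoglycans, T10R42 called 0 and T10R1 called 19 higher, with 11 differences below 0 and medians of 0.0132 in T10R42 and 0.785 in T10R1. Without the 3 hearts that stood apart, T10R1 called 6 collagens and 13 glycoproteins, and the difference was called for 6 and 4. Fibroblast markers gave a smaller picture of the same kind, with 0 of 19 called in T10R42, 7 higher in T10R1 and 3 differences below 0, or 3 and 1 without the 3 hearts that stood apart.

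Cilp, a matrix protein of heart fibroblasts, lay at 0.27, -0.04, -0.09 and -0.27 in T10R42 stressed hearts, against 0.12, -0.42, -0.36 and -0.04 in T10R42 controls. In T10R1 stressed hearts it lay at 3.27, 2.26, 1.60 and 3.30, against 0.08, -0.05, 0.05 and -0.38 in T10R1 controls. The arms overlapped in T10R42 and stood wholly apart in T10R1, where every stressed heart was above every control. Its change was 0.14 ± 0.33 (SE, n = 4 per arm) in T10R42 and 2.68 ± 0.33 in T10R1, a 6.43-fold rise, and the difference was -2.54 ± 0.46 (adjusted p = 0.00829).

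Col3a1, which encodes the chain of type III collagen, lay at 3.50, 3.02, 3.62 and 3.59 in T10R42 stressed hearts, against 3.73, 3.26, 3.35 and 3.84 in T10R42 controls. It lay at 6.66, 5.46, 5.08 and 6.63 in T10R1 stressed hearts, against 3.87, 3.54, 3.60 and 3.69 in T10R1 controls. Here too the 4 T10R1 stressed hearts were high and the other 12 hearts shared one range. The T10R42 change was -0.11, with a 95% confidence interval from -0.78 to 0.56, and the difference was -2.39 ± 0.46 (adjusted p = 0.0116). Col1a1 and Col1a2, the chains of type I collagen, had changes of -0.12 and -0.15 in T10R42 and rose by 2.00 and 1.40 in T10R1. Col6a1 and Col6a2, chains of the microfibril-forming type VI collagen, had -0.01 and -0.24 in T10R42 and rose by 1.10 and 1.14 in T10R1. The differences of these 4 chains were called, with adjusted p between 0.00499 and 0.0143. Each of the 5 chains kept the call of its difference when any 1 array was left out (highest adjusted p 0.0336, for Col1a2). Col14a1, which coats collagen fibrils, rose by 1.19 in T10R1 and remained unsettled, at 0.24 in T10R42 with a difference of -0.95 (adjusted p = 0.0943).

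Other matrix proteins and the enzymes that act on collagen followed. The microfibril protein Mfap4 had a change of -0.21 ± 0.22 in T10R42 and rose by 1.69 ± 0.22 in T10R1 (adjusted p of the difference = 0.00499). Svep1, a large cell adhesion protein, had 0.03 ± 0.12 in T10R42 and rose by 1.03 ± 0.12 in T10R1 (0.00499). The collagen-binding protein Sparc had -0.23 in T10R42 and rose by 0.76 in T10R1, and Ecm1 had -0.27 in T10R42 and rose by 0.65 in T10R1. Thbs4, a thrombospondin of stressed heart, had 0.10 in T10R42 and rose by 1.87 in T10R1, but its difference (adjusted p = 0.0237) did not pass without T10R1 stressed replicate 1 or T10R42 stressed replicate 3 (up to 0.0581). Of 19 collagen processing and crosslinking enzymes, T10R42 called 0, T10R1 called 5 higher and the difference was called below 0 for 5, or 4 and 2 without the 3 hearts. The procollagen peptidase Adamts2 had -0.10 in T10R42 and rose by 1.19 in T10R1, and the crosslinking enzymes Loxl1 and Loxl2 had -0.15 and -0.17 in T10R42 and rose by 0.90 and 1.13 in T10R1. Neither crosslinking enzyme passed in T10R1 or for the difference without T10R1 stressed replicate 1. The gelatinase Mmp2 was the 1 called member of 18 metalloproteinases and inhibitors, with -0.06 in T10R42 and a rise of 1.32 in T10R1. Among fibroblast markers with a called difference, Pi16 had -0.04 in T10R42 and rose by 0.74 in T10R1, Mfap5 had -0.02 and rose by 1.10, and Dpt had 0.03 and rose by 0.59. The differences of Mfap5 and Dpt were lost without 8 and 12 of the 16 arrays in turn, and that of Pi16 without T10R1 control replicate 2.

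Some matrix genes with very large early rises could not be settled, since their hearts differed among themselves. Postn, a matrix protein of activated fibroblasts, lay at 2.13, 1.63, 1.83 and 1.64 in T10R42 stressed hearts, against 2.17, 1.32, 1.63 and 1.74 in T10R42 controls. In T10R1 stressed hearts it lay at 5.00, 3.46, 2.97 and 4.89, against 2.00, 2.08, 2.27 and 1.81 in T10R1 controls. The T10R42 arms overlapped and the T10R1 arms did not, and the difference of -1.95 ± 0.60 had an adjusted p of 0.0586. Cthrc1, secreted where tissue is remodelled, was above background on 0 of 8 T10R42 arrays, on all 4 T10R1 stressed arrays and on 0 of 4 T10R1 control arrays. It was therefore at least 8.39-fold higher in T10R1 stressed hearts than in their controls, given as a description, because among these groups it passed the filter on dim probes only through the group where it was high. No fold is given for T10R42, and the gene is unsettled.

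**Figure D2:**
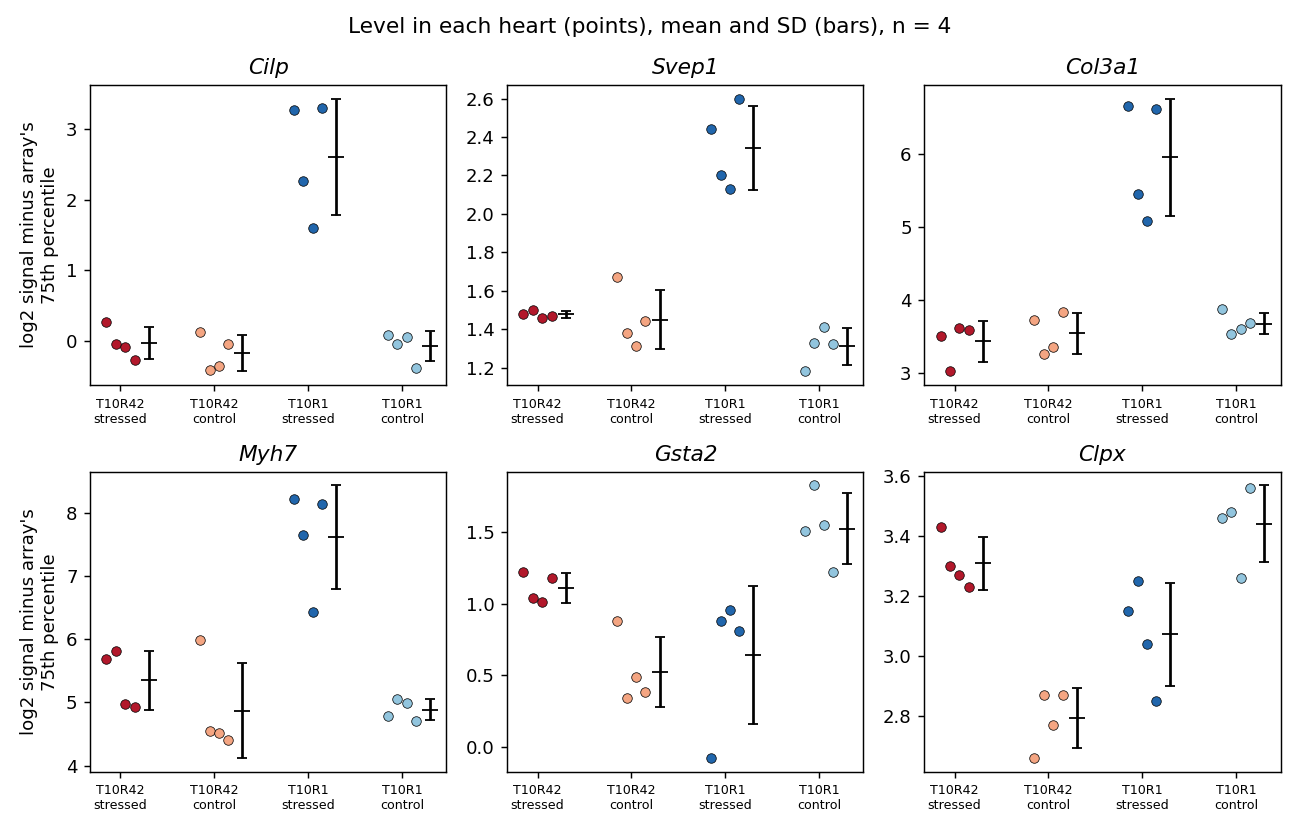
Level of 6 genes in each heart (log2 signal minus the array's 75th percentile, vertical), with T10R42 stressed, T10R42 control, T10R1 stressed and T10R1 control hearts from left to right; points are hearts and bars the mean and SD (n = 4). In Cilp, Svep1, Col3a1 and Myh7 the T10R1 stressed hearts lie above the rest, while in Gsta2 and Clpx the T10R42 controls lie below the T10R1 controls.

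Lists of growth factor genes gave few calls. Of 17 Wnt and insulin-like growth factor genes, T10R42 called 0 and T10R1 called 3 higher, of which 1 had shrunk and 2 were unsettled, and the difference was called above 0 for 1 and below 0 for 1. Of 24 TGF-beta ligands, receptors and targets, T10R42 called 0 and T10R1 called 3 higher, all 3 unsettled, and the difference was called above 0 for 1. Itgbl1, a secreted integrin-like protein, had 0.18 in T10R42 and rose by 1.46 in T10R1 (adjusted p of the difference = 0.00928). Ccn5, a matricellular protein of the Ccn family, had 0.30 in T10R42, with an interval from -0.01 to 0.60, and rose by 1.22 in T10R1. The growth factor Ptn had 0.20 in T10R42 and rose by 2.00 in T10R1, but its difference (0.0362) was lost without 10 of the 16 arrays in turn.

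The nearest to a change that stayed among the named genes was that of Frzb, a secreted Wnt antagonist. It lay at -1.50, -1.87, -1.84 and -1.84 in T10R42 stressed hearts, against -2.35, -2.38, -2.02 and -1.91 in T10R42 controls, and at -0.57, -0.85, -1.19 and -0.20 in T10R1 stressed hearts, against -1.55, -1.62, -1.67 and -1.89 in T10R1 controls. The stressed hearts were above the controls without overlap in both conditions. The change was 0.41 ± 0.19 in T10R42 (adjusted p = 0.232) and 0.98 ± 0.19 in T10R1, and the difference of -0.58 did not pass (0.187), so the gene is unsettled. Sfrp2, of the same family of Wnt antagonists, had 0.20 in T10R42 and rose by 1.60 in T10R1, with a difference that did not pass either (0.0687).

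Among muscle genes, Myh7 and Acta1 rose early and had shrunk in T10R42. Of 18 skeletal muscle markers as a list, T10R42 called 0, T10R1 called 1 higher and 2 lower, and the median change was -0.15 in T10R42 and -0.0207 in T10R1. Myh7 lay at 5.69, 5.81, 4.98 and 4.92 in T10R42 stressed hearts, against 5.99, 4.55, 4.52 and 4.41 in T10R42 controls. It lay at 8.21, 7.65, 6.43 and 8.14 in T10R1 stressed hearts, against 4.78, 5.05, 4.99 and 4.71 in T10R1 controls. Within T10R42, 3 controls lay below all stressed hearts and control replicate 1, one of the hearts high in lung markers, lay above them. The change was 0.48 ± 0.39 in T10R42, with an interval from -0.31 to 1.28, against a 6.6-fold rise in T10R1, and the difference was -2.24 ± 0.55 (adjusted p = 0.0269). It did not pass without T10R1 stressed replicate 1, T10R42 control replicate 1 or T10R42 stressed replicate 3 (up to 0.0627). Myh6, the fast alpha chain of the adult mouse heart, had -0.18 ± 0.13 in T10R42 and -0.19 ± 0.13 in T10R1, neither called, and a second probe had a T10R42 change of the other sign. Acta1, the skeletal actin of the fetal and loaded heart, had -0.17 in T10R42 and rose by 1.37 in T10R1, and its difference (0.0304) was lost without 6 of the 16 arrays in turn. For Acta1 the controls differed more between the conditions, with T10R42 minus T10R1 at -0.51 among stressed hearts and 1.04 among controls. For Myh7 these values were -2.26 and -0.02. The natriuretic peptides Nppa and Nppb, released by stretched heart muscle, had -0.15 and -0.16 in T10R42 and 0.24 and -0.23 in T10R1, none of them called. Of 24 cardiac stress and fetal genes, T10R42 called 0, T10R1 called 4 higher and the difference was called below 0 for 3, or 3 and 1 without the 3 hearts that stood apart. Atp2a2, the calcium pump of the sarcoplasmic reticulum, had 0.27 in T10R42 and -0.28 in T10R1, neither called, with a called difference of 0.55 ± 0.11 (0.0146); 1 of its 2 probes had a T10R42 change of the other sign.

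The early changes of dividing-cell genes were uneven between hearts. The mean of 37 mitosis and cell cycle genes, relative to the controls of its own condition, was 0.03, -0.27, -0.17 and -0.18 in T10R42 stressed hearts, against 0.07, 0.00, 0.02 and -0.09 in T10R42 controls. It was 1.51, 0.64, 0.55 and 0.03 in T10R1 stressed hearts, against -0.42, 0.06, 0.29 and 0.07 in T10R1 controls. The T10R1 arms overlapped, and T10R1 stressed replicate 1 was the highest of all hearts. T10R42 called 0 of the 37, T10R1 called 4 higher and the difference was called below 0 for 5, but for 0 under quantile normalization and 1 without the 3 hearts that stood apart. Foxm1, a transcription factor of mitotic genes, had -0.28 in T10R42 and rose by 0.63 in T10R1 (adjusted p of the difference = 0.0195), and cyclin B2 (Ccnb2) had -0.18 in T10R42 and rose by 1.11 in T10R1 (0.04). The T10R1 rise of Foxm1 was lost without 5 of the 16 arrays in turn and the Ccnb2 difference without 12.

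Clustered histone genes, whose products package newly made DNA, moved in a narrower range. Of 21 tested, T10R42 called 0, T10R1 called 6 higher and the difference was called below 0 for 7, or 2 and 2 without the 3 hearts that stood apart. The median change was -0.159 in T10R42 and 0.335 in T10R1, and all 21 were measured higher in T10R1. H2ac12 lay at 5.83, 5.70, 5.81 and 5.80 in T10R42 stressed hearts, against 6.11, 5.93, 6.00 and 5.89 in T10R42 controls, and at 6.18, 5.88, 5.97 and 5.85 in T10R1 stressed hearts, against 5.52, 5.61, 5.49 and 5.50 in T10R1 controls. The arms stood apart in both conditions, with the stressed hearts lower in T10R42 and higher in T10R1. Its difference was -0.64 ± 0.12 (adjusted p = 0.0093). Between the conditions the controls of H2ac12 differed more, with T10R42 minus T10R1 at -0.19 among stressed hearts and 0.45 among controls. H2ac genes are near-identical copies, and pairs of 6 H2ac probes compared shared runs of 7 to 42 of their 60 bases, so some of them may read each other's transcripts.

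The histone promoters also share a sequence feature that the choice of the list did not use. The motif CCAAT (or ATTGG, its reverse complement) was searched in the 250 bases before each gene's start, on both strands, in the promoters of RefSeq on GRCm38.p6. It was found in 18 of 19 histone promoters (94.7%), against 4864 of the 13586 tested genes with a promoter (35.8%). Among the shrunken early rises it was found in 28 of 61 (45.9%), and among the shrunken early falls in 23 of 51 (45.1%). A match is a description of these letters and not of binding. The 120 bases before the start of H2ac12 and H2ac22, whose early rise had shrunk, are shown 5′ to 3′ along the gene with the motif in capitals.
H2ac12, chr13:22035644-22035763, minus strand: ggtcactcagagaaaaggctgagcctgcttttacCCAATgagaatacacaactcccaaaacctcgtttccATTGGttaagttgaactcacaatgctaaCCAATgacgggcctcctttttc
H2ac22, chr13:21787249-21787368, minus strand: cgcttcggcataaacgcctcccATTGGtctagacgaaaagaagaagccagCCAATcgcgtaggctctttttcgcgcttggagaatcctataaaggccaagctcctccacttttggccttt

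Genes of energy metabolism showed the opposite early direction and smaller changes. Of 20 genes that break down branched-chain amino acids (leucine, isoleucine and valine), T10R42 called 0, T10R1 called 4 lower and the difference was called above 0 for 8. The median change was 0.108 in T10R42 and -0.283 in T10R1, and 0 of the 20 were measured higher in T10R1. The 4 called genes were Ppm1k, Bckdhb, Ivd and Mmut. Ppm1k is the phosphatase that activates the pathway's rate-setting dehydrogenase, and Bckdhb is a subunit of that dehydrogenase. Ivd acts in leucine breakdown, and Mmut is a mutase late in isoleucine and valine breakdown. Ppm1k lay at 2.48, 2.23, 2.39 and 2.06 in T10R42 stressed hearts, against 2.00, 2.26, 2.27 and 2.05 in T10R42 controls, and at 1.93, 2.10, 1.77 and 2.03 in T10R1 stressed hearts, against 2.58, 2.68, 2.13 and 2.62 in T10R1 controls. The arms overlapped in T10R42 and did not in T10R1. The changes in T10R42 were 0.15 for Ppm1k, 0.07 for Bckdhb, 0.03 for Ivd and 0.09 for Mmut, and in T10R1 these genes fell by 0.55, 0.37, 0.35 and 0.36. Their differences were lost without 4, 11, 11 and 12 of the 16 arrays in turn, and their T10R1 falls without 5, 6, 3 and 7. Under quantile normalization the difference was called for 0 of the 20 and T10R1 called 1 lower, and without the 3 hearts that stood apart these counts were 4 and 4.

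Fat and glucose genes gave few calls. Of 30 glycolysis and pyruvate genes, T10R42 called 1 higher, T10R1 called 1 lower and the difference was called above 0 for 3. Of 37 fatty acid genes the difference was called above 0 for 3, with medians of 0.0914 in T10R42 and -0.226 in T10R1. Echs1, an enzyme of fatty acid oxidation, had 0.11 in T10R42 and fell by 0.38 in T10R1, with a difference of 0.49 (0.0304). The fall was lost without 7 of the 16 arrays in turn and the difference without 6. Acadl, a dehydrogenase of long-chain fatty acids, rose by 0.36 in T10R42 and had -0.31 in T10R1, with a difference of 0.66 (0.00802), and its T10R42 rise was lost without 8 of the 16 arrays in turn. Pdk1, a kinase that holds back pyruvate dehydrogenase, rose by 0.40 in T10R42 and had -0.15 in T10R1 (0.0116). Pfkfb1, which sets the level of a glycolysis activator, had 0.35 in T10R42 and fell by 0.84 in T10R1 (0.016), and Acss1, a mitochondrial acetyl-CoA synthetase, had 0.23 in T10R42 and fell by 0.33 in T10R1 (0.00583). Of 48 oxidative phosphorylation genes, T10R42 called 0 and T10R1 called 1 lower. Their medians were 0.00899 in T10R42 and -0.188 in T10R1, where 1 of the 48 was measured higher, and under quantile normalization they were -0.00659 in T10R42 and -0.0974 in T10R1, with 0 called.

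Enzymes of detoxification also lay low early. Of 30 antioxidant and xenobiotic genes, T10R42 called 2 higher, T10R1 called 3 lower and the difference was called above 0 for 6 and below 0 for 1. Without the 3 hearts that stood apart these counts were 0, 1, 3 and 0. Gsta2, a glutathione transferase, lay at 1.22, 1.04, 1.01 and 1.18 in T10R42 stressed hearts, against 0.88, 0.34, 0.49 and 0.38 in T10R42 controls. It lay at -0.08, 0.88, 0.96 and 0.81 in T10R1 stressed hearts, against 1.51, 1.83, 1.55 and 1.22 in T10R1 controls. The arms stood apart in both conditions, in opposite directions. The change was 0.59 ± 0.17 in T10R42 (adjusted p = 0.0764) and -0.88 ± 0.17 in T10R1 (0.0119), and the difference of 1.47 ± 0.25 was called (0.00499). Its relative Gsta1 had 0.59 in T10R42 and fell by 0.82 in T10R1, and the probes of the pair share a run of 16 bases. The Gsta2 probe also shares 30 bases in a row with that of Gm10639, so the members of this family may be read together. Cyp1a1, an enzyme switched on by the aryl hydrocarbon receptor, lay at -0.17, -0.67, -0.71 and 0.31 in T10R42 stressed hearts, against -1.23, -0.80, -0.92 and -0.62 in T10R42 controls, and at -0.44, -0.03, -0.09 and -0.24 in T10R1 stressed hearts, against 1.95, 0.74, 0.52 and 1.22 in T10R1 controls. The T10R42 arms overlapped and the T10R1 arms did not. The change was 0.59 in T10R42 and -1.30 in T10R1, with a difference of 1.89 ± 0.40 (0.0158). Tiparp, another target of that receptor, had 0.10 in T10R42 and fell by 0.41 in T10R1, Nqo1, a quinone reductase, rose by 0.35 in T10R42 and had -0.31 in T10R1, and the receptor gene Ahr rose by 0.60 in T10R42 and had 0.16 in T10R1. The differences of Tiparp and Nqo1 were called (0.0388 and 0.00611, the first lost without 11 of the 16 arrays in turn), and that of Ahr was not (0.195). The T10R42 rises of Nqo1 and Ahr were lost without 8 and 9 of the 16 arrays in turn. The T10R1 falls of Gsta2, Gsta1, Cyp1a1 and Tiparp were lost without 2, 5, 4 and 7 of them.

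**Figure D3:**
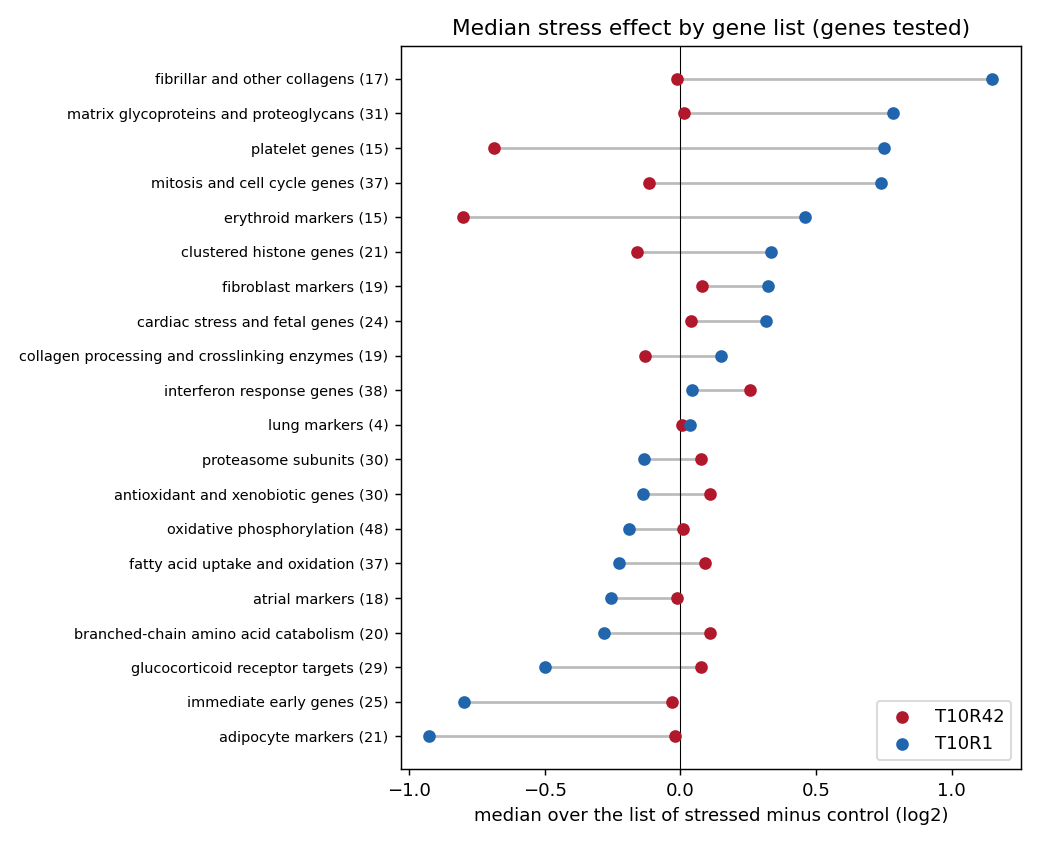
Median stressed minus control change (log2, horizontal) of 20 gene lists, with the number of genes tested in brackets; red points are T10R42 and blue points T10R1. Collagens lie at -0.0109 in T10R42 and 1.15 in T10R1, and the platelet and erythroid lists lie on opposite sides of 0.

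Only 2 changes reversed, both of genes that had fallen early. Clpx, the unfolding subunit of a mitochondrial protease, lay at 3.43, 3.30, 3.27 and 3.23 in T10R42 stressed hearts, against 2.66, 2.87, 2.77 and 2.87 in T10R42 controls. It lay at 3.15, 3.25, 3.04 and 2.85 in T10R1 stressed hearts, against 3.46, 3.48, 3.26 and 3.56 in T10R1 controls. No stressed heart overlapped its controls in either condition. Clpx rose by 0.52 ± 0.09 in T10R42 (adjusted p = 0.00927) and fell by 0.37 ± 0.09 in T10R1 (0.0331), with a difference of 0.88 ± 0.12 (0.00254).

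Tmed5, a cargo receptor of the early secretory pathway, lay at 0.78, 0.43, 0.83 and 0.95 in T10R42 stressed hearts, against 0.36, 0.25, 0.25 and 0.17 in T10R42 controls. It lay at 0.51, 0.60, 0.60 and 0.51 in T10R1 stressed hearts, against 0.88, 0.98, 1.03 and 0.98 in T10R1 controls, again without overlap in either condition. It rose by 0.49 ± 0.10 in T10R42 (0.0256) and fell by 0.41 ± 0.10 in T10R1 (0.0467), with a difference of 0.91 ± 0.15 (0.00499). The differences of both genes passed without any 1 of the 16 arrays. The T10R1 fall of Clpx did not pass without T10R1 control replicates 1, 2 or 4 or T10R1 stressed replicates 1, 3 or 4 (adjusted p up to 0.147), and that of Tmed5 was lost without 13 of the 16 arrays in turn (up to 0.144). The T10R42 rise of Tmed5 was lost without 6 of them (up to 0.0983). In both genes the controls differed more between the conditions than the stressed hearts did. T10R42 minus T10R1 was 0.24 among stressed hearts and -0.65 among controls for Clpx, and 0.20 among stressed hearts and -0.71 among controls for Tmed5.

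Which arm differed between the conditions varied by list. For 16 of the 17 collagens the stressed hearts differed more between T10R42 and T10R1 than the controls did, with median differences of -1.27 among stressed hearts and -0.131 among controls. The same held for 25 of 31 matrix glycoproteins, with -0.806 among stressed hearts and -0.181 among controls, and for Cilp the values were -2.64 among stressed hearts and -0.10 among controls. It held as well for 19 of 24 contractile genes, 11 of 15 erythroid markers, 26 of 37 mitosis genes and 25 of 37 fatty acid genes. Further lists with such a majority included oxidative phosphorylation (31 of 48), cardiac stress and fetal genes (16 of 24) and proteasome subunits (19 of 30). In other lists it held for the minority, as in 6 of 21 clustered histone genes, 7 of 15 platelet genes and 11 of 30 glycolysis genes. Of the mitosis genes named, Foxm1 had 0.04 among stressed hearts and 0.95 among controls, and Ccnb2 had -0.61 and 0.68. Over all tested genes the stressed arm differed more in 34.4%. Among genes with a difference called above 0 it did so in 88 of 631 (13.9%), with medians of 0.0251 among stressed hearts and -0.54 among controls. Among those called below 0 it did so in 162 of 547 (29.6%). For Cyp1a1 the values were -0.11 among stressed hearts and -2.0 among controls, and for Acadl they were -0.06 and -0.72. Rest time, slide and scan day went together, so their parts in the shift of the controls cannot be told apart.

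**Figure D4:**
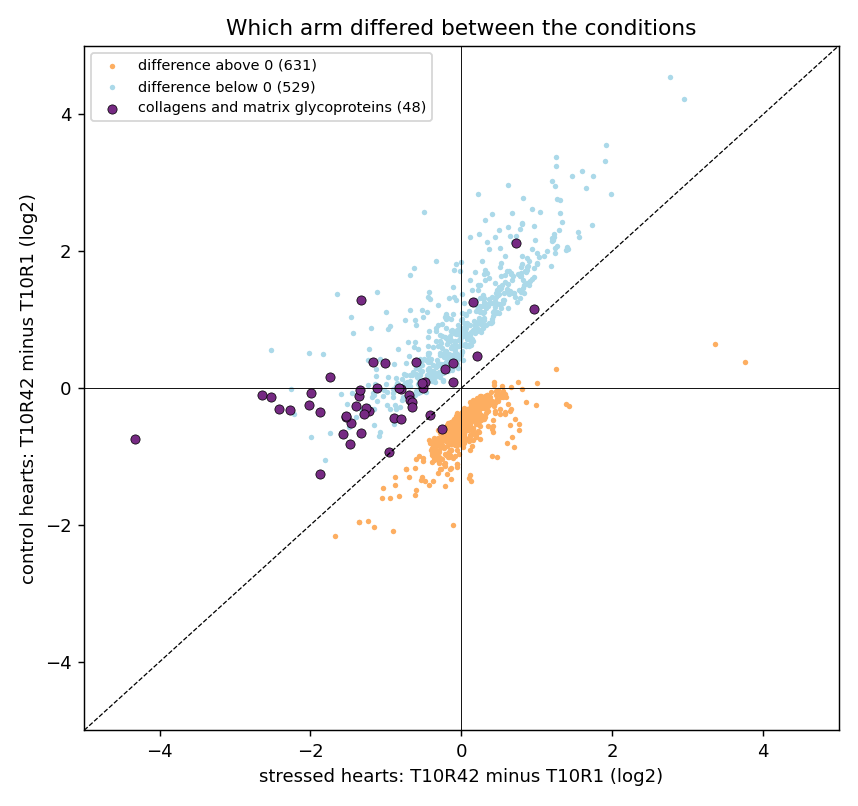
T10R42 minus T10R1 among control hearts (vertical, log2) against the same among stressed hearts (horizontal, log2); points are genes with a called difference, with all 48 collagens and matrix glycoproteins drawn apart from them, and the dashed line marks an equal shift of both arms. Matrix genes spread to the left along the horizontal axis, while most other genes spread along the vertical one.

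Most differences belonged to genes that neither condition called on its own. Of 1178 called differences, 842 (71.5%) were of this kind, and in all 842 the changes had opposite signs in the conditions. Over all tested genes 17306 (62.9%) had opposite signs, and calling a difference favours such genes. Cry2, a repressor of the circadian clock, had 0.42 in T10R42 and -0.39 in T10R1, neither called, and a difference of 0.80 (adjusted p = 0.0159), which 1 of its 2 probes did not share in sign. Genes called in 1 condition often lay on the other side in the other. Anxa11, a calcium-dependent membrane-binding protein, lay at 4.26, 4.02, 4.22 and 4.15 in T10R42 stressed hearts, against 3.83, 3.95, 3.95 and 3.93 in T10R42 controls, and at 4.03, 4.06, 4.14 and 4.14 in T10R1 stressed hearts, against 4.53, 4.54, 4.47 and 4.36 in T10R1 controls. T10R1 called its fall of 0.39, and its T10R42 change of 0.25 had an adjusted p of 0.0764, so it counts as shrunk although the arms stood apart in both conditions. The RNA-binding proteins Hnrnpa1 and Syncrip had differences of 0.74 and 0.63. Hnrnpa1 rose by 0.39 in T10R42 and had -0.34 in T10R1, and Syncrip had 0.29 in T10R42 and fell by 0.33 in T10R1. Dnaja2, a co-chaperone, rose by 0.33 in T10R42 and had -0.27 in T10R1. The T10R42 rises of Hnrnpa1 and Dnaja2 were each lost without 7 arrays in turn (adjusted p up to 0.125 and 0.09). The T10R1 fall of Syncrip was lost without 8 arrays in turn (up to 0.109). Leaving out single arrays did not lose the differences of these genes. Across the alternatives, the T10R1 change of Hnrnpa1 ran from -0.41 to 0.21 and its difference from 0.14 to 0.8. Ahnak, a giant scaffold protein, rose by 0.47 in T10R42 and had -0.22 in T10R1 by its brightest probe, but 2 of its 4 probes had a difference of the other sign.

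Most platelet and red cell genes were measured on opposite sides of the controls in the 2 conditions, with few calls. All 15 platelet genes tested were measured higher in T10R1 and 1 was measured higher in T10R42. T10R42 called 0 of the 15 and T10R1 called 1 higher. Their median change was -0.685 in T10R42 and 0.751 in T10R1, and the difference was called below 0 for 6, but for 0 without the 3 hearts that stood apart. The list mean was -0.43, -0.54, -0.46 and -1.06 in T10R42 stressed hearts, against 0.06, -0.08, -0.18 and 0.20 in T10R42 controls, and 0.52, 1.12, 0.47 and 0.42 in T10R1 stressed hearts, against -0.42, 0.55, 0.01 and -0.14 in T10R1 controls. The T10R42 arms stood apart, whereas T10R1 control replicate 2 lay within the range of its stressed hearts. Gp1bb, a subunit of the platelet receptor for von Willebrand factor, lay at -2.04, -1.41, -1.73 and -2.10 in T10R42 stressed hearts, against -1.16, -1.18, -1.50 and -0.75 in T10R42 controls, and at -1.08, -0.81, -1.39 and -1.27 in T10R1 stressed hearts, against -2.58, -1.75, -2.38 and -2.47 in T10R1 controls. It had -0.67 ± 0.28 in T10R42 and rose by 1.15 ± 0.28 in T10R1, with a difference of -1.83 ± 0.39 (adjusted p = 0.0159) that passed without any 1 array. Its T10R1 rise was lost without 6 of the 16 arrays in turn (up to 0.12). Gp5 and Gp9, of the same receptor, had -0.97 and -0.82 in T10R42 and 0.75 and 0.91 in T10R1, and the integrin Itgb3 had -0.76 in T10R42 and 0.89 in T10R1. Their differences were called, but were lost without 10, 10 and 7 of the 16 arrays in turn. Selp, a granule and endothelial adhesion receptor, had -0.44 in T10R42 and 0.30 in T10R1 (adjusted p of the difference = 0.0173). Of 15 erythroid markers, 0 were measured higher in T10R42 and 13 in T10R1, with medians of -0.801 in T10R42 and 0.458 in T10R1. T10R42 and T10R1 each called 0 of these markers. The difference was called below 0 for 2 of them, but for 0 under quantile normalization and without the 3 hearts that stood apart. Erythroid list means were -0.35, -0.66, -0.51 and -1.13 in T10R42 stressed hearts, against 0.12, 0.28, 0.01 and -0.41 in T10R42 controls, and 1.45, 0.63, 0.17 and 0.08 in T10R1 stressed hearts, against -0.40, 0.30, -0.07 and 0.17 in T10R1 controls. The erythroid arms overlapped in both conditions. The part that blood held in the hearts had in these values was not tested.

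**Figure D5:**
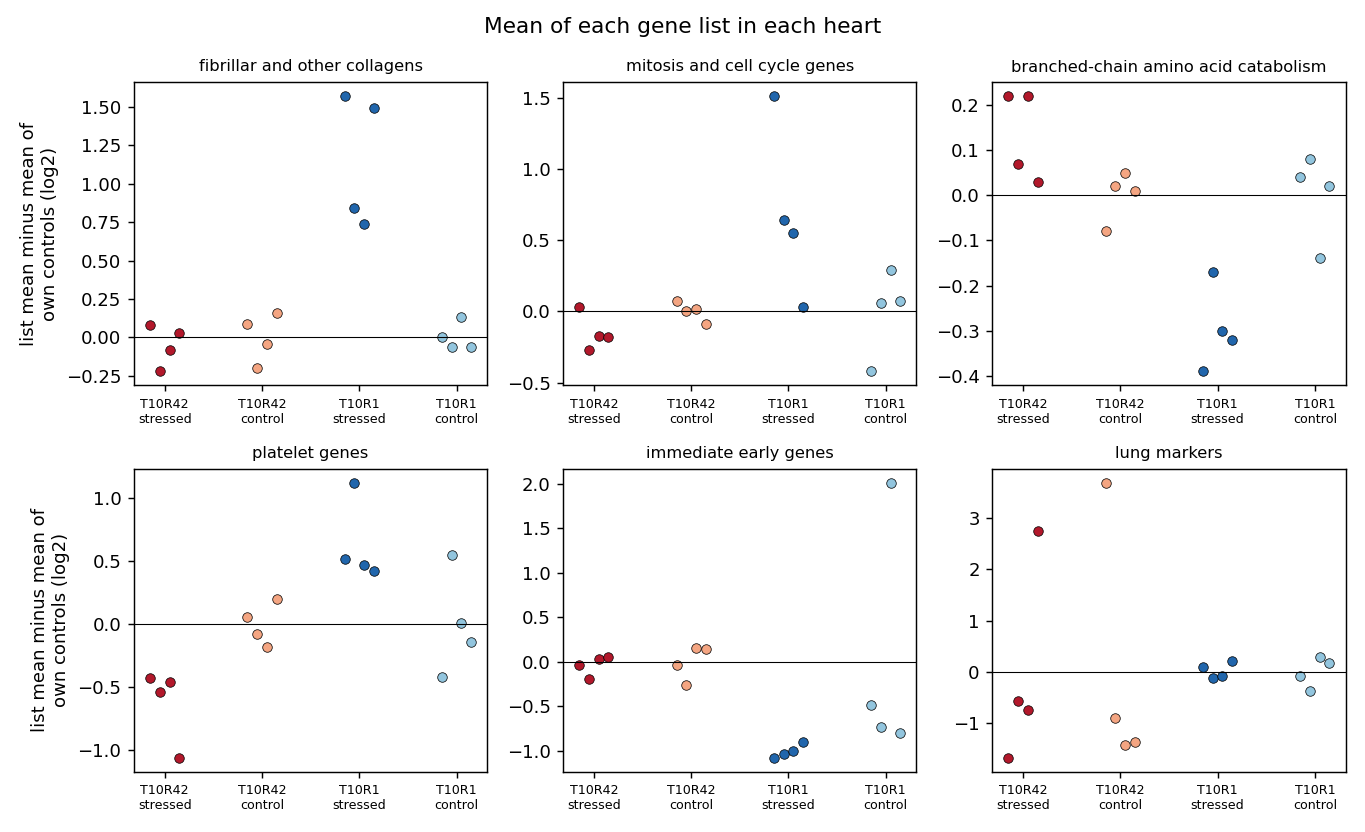
Mean of 6 gene lists in each heart, relative to the control mean of the same condition (vertical, log2), with T10R42 stressed, T10R42 control, T10R1 stressed and T10R1 control hearts from left to right. Collagens are high in the 4 T10R1 stressed hearts, platelet genes lie on opposite sides of 0 in the stressed hearts of the 2 conditions, T10R1 control replicate 3 is high in immediate early genes (2.01), and 2 T10R42 hearts are high in lung markers (2.75 and 3.69).

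Of the early immune rises, 3 named genes were unsettled. Ms4a7, a macrophage marker, had 0.07 in T10R42 and rose by 1.45 in T10R1, the chemokine Ccl8 had 0.07 in T10R42 and rose by 1.55 in T10R1, and the acute phase inhibitor Serpina3n had 0.19 in T10R42 and rose by 1.38 in T10R1. Their differences had adjusted p of 0.0501, 0.059 and 0.0519. Of 30 monocyte and macrophage markers, T10R42 called 0, T10R1 called 2 higher and 1 lower, and the difference was called below 0 for 2. Of the early calls, 1 macrophage marker had shrunk and 2 were unsettled, and of 28 acute phase and complement genes 1 had shrunk and 1 was unsettled.

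Hormone and activity genes were not called for the difference in either list. Of 29 glucocorticoid receptor targets each comparison called 0, with medians of 0.0777 in T10R42 and -0.497 in T10R1. The glucocorticoid target Fkbp5 had 0.30 in T10R42 and -0.23 in T10R1, and the clock gene Per1 had -0.13 in T10R42 and -0.90 in T10R1. Of 25 immediate early genes, all 25 were measured lower in T10R1, with a median of -0.797 in T10R1 that was -0.271 without the 3 hearts that stood apart, and -0.0303 in T10R42. Egr3, an immediate early transcription factor, was above background on 2 of 4 T10R42 stressed and 4 of 4 T10R42 control arrays, and on 0 of 4 T10R1 stressed and 2 of 4 T10R1 control arrays. It was at least 1.41-fold lower in T10R1 stressed hearts, with an adjusted p of 0.0335 there and 0.11 for the difference. The T10R1 call of Egr3 was lost without 5 arrays in turn (up to 0.138). These included T10R1 control replicate 3, the heart high in immediate early genes. Without the 3 hearts that stood apart, T10R1 called 0 of the 25 immediate early genes.

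A further 166 genes were called in T10R42 and not in T10R1, with a called difference, 63 of them higher and 103 lower. Of the 63 higher genes 9 lay below the median level of all tested genes, as did 66 of the 103 lower genes. Klhl15, an adaptor of a ubiquitin ligase, was above background on 3 of 4 T10R42 stressed arrays and 0 of 4 T10R42 control arrays, and was at least 1.89-fold higher in stressed hearts (adjusted p = 0.00927). It was above background on all 8 T10R1 arrays, with a change of -0.26. The transcript A830029E22Rik was above background on 3 of 4 T10R42 stressed arrays and on none of the other 12, at least 1.94-fold higher in T10R42 stressed hearts than in their controls. This is a description, because among these groups it passed the filter on dim probes only through the group where it was high, and its difference was lost without T10R42 stressed replicate 3 (adjusted p = 0.0573). Siah3, of a family of ubiquitin ligases, lay at -1.0, -0.96, -0.79 and -0.70 in T10R42 stressed hearts, against -0.19, -0.24, -0.46 and -0.19 in T10R42 controls. It fell by 0.59 in T10R42 and had 0.37 in T10R1, with a difference of -0.96 (0.00317). Ren1, which encodes renin, fell by 0.64 in T10R42 and had -0.19 in T10R1, and its difference of -0.46 did not pass (0.133). The T10R42 changes moved with the level of a gene. With the genes split by level into 4 equal bins, the median changes from the dimmest to the brightest bin were -0.234, -0.102, 0.046 and 0.052 in T10R42, and 0.06, 0.049, -0.008 and -0.071 in T10R1. After quantile normalization these bins had medians of -0.061, -0.005, 0.024 and 0.003 in T10R42.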

How the data were processed

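Heart RNA of single mice was measured on 1-colour Agilent arrays. Spot intensity was deposited as scanner output, background-subtracted by Feature Extraction 10.7.3.1, per the file headers. The deposited files also hold other values, flags of 0 or 1 for spots well above background, saturated or outlying. The authors' deposited value table holds log2 values, which match the log2 mean spot signal (correlation of at least 0.99951) and served as an alternative only. Its column medians ran from 5.85 to 6.26, and its scaling between arrays was not given in the sources used here.

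Outlier spots were left out, spots of a probe averaged, and log2 processed signal taken minus each array's 75th percentile. Probes needed a signal well above background on 3 or more of the 4 arrays in some group, and a value on all but 4 arrays or fewer. The brightest probe stood for a gene, which gave 27517 genes (18306 with an official symbol, 7331 with several probes, 54 missing values). limma 3.58.1 in R 4.3.3 fitted 8 group means to the 32 arrays (residual degrees of freedom 24, prior 2.3). Tests were two-sided, n is mice, and ± is SE unless stated. A gene above background on no array of an arm is given as a bound against the background level. The fit was tested on simulated data.

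Members, 44 gene lists and tests were chosen with earlier results of these data known. The text names a part of the genes with official symbols that a rule gave: the 10 largest called rises and falls of each condition and class, the 10 smallest p of the difference in each direction, up to 6 called members of each list (otherwise 2), and Fkbp5, Per1, Nppa, Nppb, Myh6, Myh7, Cilp, Postn, Col1a1, Col3a1, Acta1 and Serpina3n. Alternatives changed the normalization, background correction, probe filter, probe summary, arrays in the fit, blocks and weights. Same-numbered mice of the 2 arms did not deviate together (correlations from -0.112 to 0.178), so replicate numbers were not treated as pairs. Sequences came from the array files and from RefSeq promoters on GRCm38.p6.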

Additional observations from a re-analysis of the deposited data

Results flagged for a closer look

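Some hearts stood far from the other 3 of their group. Of 376 groups of 4 tested, 21 held such a heart, which is near the share of about 1 in 20 that chance gives. T10R42 control replicate 1 was the highest of its group in Myh7 (level 5.99), in the mean of lung markers (3.69) and in the mean of antioxidant and xenobiotic genes (0.04), and the lowest in Anxa11 (level 3.83). T10R42 control replicate 2 was the lowest in Loxl2 (0.84) and Per1 (3.46), and T10R42 control replicate 3 the highest in the histone mean (0.09). Among T10R42 stressed hearts, replicate 1 was the highest in Frzb (-1.50) and Mmut (4.45), replicate 2 the highest in Egr3 (-2.68), and replicate 4 the lowest in the mean of cardiac stress and fetal genes (-0.09). T10R1 stressed replicate 1 was the lowest in Gsta2 (-0.08), replicate 2 the highest in Gp5 (-1.24) and the platelet mean (1.12), and replicate 4 the highest in Ahr (0.73) and the lowest in the atrial mean (-1.12). T10R1 control replicate 3 was the highest in the means of immediate early genes (2.01) and of cardiac stress and fetal genes (0.33), and the lowest in Mmut (3.93) and Serpina3n (-1.74). T10R1 control replicate 1 was the lowest in H2ac22 (4.15).

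For 58 of the genes named, the stress effect differed between the conditions by the limma test of the difference, T10R42 minus T10R1. The rule that named genes used the difference and its calls in part, so this count follows from the choice and is a description. Over all 27517 tested genes the difference was called above 0 for 2.29% and below 0 for 1.99%. Among collagens the difference was -2.39 for Col3a1, -2.12 for Col1a1, -1.55 for Col1a2, -1.11 for Col6a1 and -1.38 for Col6a2. Among other matrix and fibroblast genes it was -2.54 for Cilp, -1.89 for Mfap4, -1.78 for Thbs4, -0.99 for Sparc, -0.92 for Ecm1, -1.0 for Svep1, -0.78 for Pi16, -1.12 for Mfap5 and -0.56 for Dpt. Among matrix enzymes it was -1.05 for Loxl1, -1.30 for Loxl2, -1.29 for Adamts2 and -1.38 for Mmp2, and among secreted signals -1.28 for Itgbl1, -1.80 for Ptn and -0.93 for Ccn5. Muscle genes had -2.24 for Myh7, -1.54 for Acta1 and 0.55 for Atp2a2. Cell cycle and histone genes had -1.29 for Ccnb2, -0.91 for Foxm1, -0.64 for H2ac12 and -0.72 for H2ac22.

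Metabolic genes had differences of 0.38 for Ivd, 0.69 for Ppm1k, 0.43 for Bckdhb, 0.44 for Mmut, 0.49 for Echs1, 0.66 for Acadl, 0.56 for Pdk1, 1.19 for Pfkfb1 and 0.56 for Acss1. Detoxification genes had 1.89 for Cyp1a1, 1.47 for Gsta2, 1.41 for Gsta1, 0.52 for Tiparp and 0.66 for Nqo1. The genes that reversed had 0.88 for Clpx and 0.91 for Tmed5. Further genes on opposite sides had 0.74 for Hnrnpa1, 0.63 for Syncrip, 0.64 for Anxa11, 0.69 for Ahnak, 0.59 for Dnaja2 and 0.80 for Cry2. Platelet and adhesion genes had -1.83 for Gp1bb, -1.64 for Itgb3, -1.72 for Gp5, -1.73 for Gp9 and -0.74 for Selp. Genes called in T10R42 had 2.72 for A830029E22Rik, 1.49 for Klhl15 and -0.96 for Siah3.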

How the results depend on the processing

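In the analysis described, T10R42 called 232 genes, T10R1 287 and the difference 1178, with 168 changes shrunk, 2 reversed, 0 stayed and 166 new at 42 days. Quantile normalization gave 375, 185 and 539 calls, with 97 shrunk, 1 reversed and 1 stayed. Normexp background correction together with quantile normalization gave 375 T10R42 calls and 772 differences. The authors' deposited table gave 127 T10R42 calls, 671 differences and 84 new genes. No filter on dim probes gave 101, 173 and 524 calls, with 84 shrunk, 1 reversed and 63 new. Probes well above background on all 32 arrays gave 443 T10R42 calls, 6 reversed and 333 new. The mean of a gene's probes left 1 reversed, and a fit of the 16 arrays alone left 1 reversed and 1 stayed. Array weights gave 2028, 1211 and 4008 calls, with 742 shrunk, 112 reversed, 10 stayed and 1343 new. Leaving out the 3 hearts that stood apart, chosen after seeing the data, gave 14, 158 and 446 calls, with 74 shrunk, 1 reversed and 12 new. With 1 array left out at a time, calls ran from 29 to 1363 in T10R42, 69 to 294 in T10R1 (fewest without T10R1 stressed replicate 1) and 342 to 2093 for the difference. The classes ran from 36 to 175 shrunk, 0 to 7 reversed, 0 to 1 stayed and 19 to 871 new. The replicate number as a block gave 228, 200 and 1028 calls, with 117 shrunk and 1 reversed, but same-numbered mice did not deviate together, so this pairing is by number alone. Slide row as a block kept each count within 1.5 times. Of 123 called results of named genes, 53 passed under every alternative that tested the gene (26 or 27), 14 were lost under most and 0 changed sign. The cause of these shifts was not tested.

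With 4 hearts per arm, the median SE was 0.153 for a stress effect and 0.217 for the difference, so small changes could not be settled. Dim probes give bounds and not folds. No heart was followed over time, and condition, slide and scan day cannot be told apart.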

Other observations

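Interferon response genes, which cells switch on against viruses, were measured higher in T10R42 stressed hearts for 35 of 38 genes tested, with a median change of 0.258, against 0.0418 in T10R1. None of the 38 was called in either condition, and the difference was called above 0 for 1. The list mean was 0.29, -0.03, 0.47 and 0.33 in T10R42 stressed hearts, against 0.16, -0.30, 0.11 and 0.03 in T10R42 controls, so the arms overlapped. Proteasome subunits, the parts of the complex that degrades tagged proteins, were measured higher for 28 of 30 genes in T10R42 and for 0 of 30 in T10R1, with medians of 0.0771 and -0.135, none was called in either condition, and the difference was called above 0 for 1. Under quantile normalization the medians of the proteasome subunits were 0.0367 in T10R42 and -0.0571 in T10R1, with 0 differences called. Circadian clock genes had a median of 0.23 in T10R42, where 19 of 22 were measured higher, and of -0.159 in T10R1, where 3 were, with 2 differences called above 0.

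Adipocyte genes varied within every group. Their mean was -1.03, -1.19, 0.60 and 1.46 in T10R42 stressed hearts, against 1.53, -0.14, -0.42 and -0.97 in T10R42 controls, and -1.30, -0.54, -0.27 and -1.83 in T10R1 stressed hearts, against -0.30, -0.26, -0.13 and 0.69 in T10R1 controls. None of the 21 was called in any of the 3 comparisons.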
